A study of Mus musculus with 6 samples.

Results

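The MiT-TFE transcription factors and the lysosomal machinery that controls them were examined in cultured osteoclasts lacking *Slc37a2*, which encodes a sugar phosphate transporter family protein of the osteoclast's secretory lysosomes. The set comprised 10 genes of the 22601 in the count table, matched by symbol and chosen for their roles, with earlier results of these data known: the factors *Mitf*, *Tfeb*, *Tfe3* and *Tfec*, the folliculin complex genes *Flcn*, *Fnip1* and *Fnip2*, and the Rag GTPase genes *Rraga*, *Rragc* and *Rragd*. RNA was sequenced from 3 WT and 3 *Slc37a2* KO samples, each titled as a separate biological replicate. KO mice were homozygous for the Slc37a2 tm2a(KOMP)Wtsi allele, a gene-trap allele present in the whole body and derived from 1 targeted embryonic stem cell clone, and were kept on C57BL/6N, as were the WT controls. According to the labels, bone marrow macrophages of both genotypes were turned into osteoclasts by 5 days in RANKL (10 ng/ml) and M-CSF (2 ng/ml). The methods of the study, by contrast, give whole long bones as the RNA source, and the labels are followed here. Column headings name the animal (11 weeks old, marked F) without a replicate number, and libraries are therefore named by animal: K090, L080 and L082 for WT, and K089, L078 and L081 for KO.

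MITF, TFEB, TFE3 and TFEC are basic helix-loop-helix leucine zipper proteins that bind DNA as homodimers or heterodimers. MITF, TFEB and TFE3 switch on genes of the lysosome and of autophagy. In nutrient-replete cells, pairs of Rag GTPases (RagA or RagB with RagC or RagD) sit on the lysosome and bring mTORC1 and the factors together there, mTORC1 phosphorylates the factors, and 14-3-3 proteins hold them in the cytoplasm. Folliculin, in complex with FNIP1 or FNIP2, activates GTP hydrolysis by RagC and RagD and so prepares them for that recruitment. In osteoclasts, MITF and TFE3 are known activators of the genes for tartrate-resistant acid phosphatase and cathepsin K, and TFEB of lysosomal biogenesis. Much of this control acts on phosphorylation and location, neither of which is measured by transcript counts.

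Libraries held between 27552183 and 42522292 counts. Levels are given as CPM, the counts relative to the library total, after scaling between libraries (scaled CPM), and differences as the log2 fold change of KO over WT. *Slc37a2* measured 1857, 2151 and 2439.9 scaled CPM in WT and 45.3, 32.1 and 36.9 in KO, and it fell by 5.82 on the log2 scale (95% confidence interval −6.30 to −5.34, adjusted p = 7.07e-04, edgeR's quasi-likelihood test, Benjamini-Hochberg adjusted). It was the 1 gene of 13483 tested that passed at an adjusted p below 0.05, a share of 0.00742%. Sums over marker lists are given as CPM of the library total, without scaling between libraries. Summed osteoclast markers reached 39869 to 57359 CPM in WT and 44352 to 70383 in KO, and macrophage markers 3826 to 4007 and 3879 to 4155. Osteoblast and stromal markers summed to 824 to 1541 CPM in WT and 582 to 1849 in KO. Most came from the collagen genes *Col1a1* and *Col1a2*, with means of 531 and 431 scaled CPM over the 6 libraries. The other listed markers averaged, in scaled CPM, 72.1 for *Col3a1*, 36.0 for *Pdgfrb*, 13.1 for *Runx2*, 4.64 for *Alpl*, 3.78 for *Cxcl12*, 2.02 for *Sp7* and 0.0118 for *Bglap*. *Mitf* is also known from melanocytes and mast cells, whose markers summed to at most 0.708 and 1.13 CPM in any library. Of the listed markers, 2 of 5 and 5 of 8 were in the table. Neutrophil markers summed to at most 1.37 CPM. In such bulk samples, fewer cells of a type and less RNA per cell cannot be told apart.

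None of the 10 genes passed the test: adjusted p ran from 0.969 to 0.995, 0 of 10 had an unadjusted p below 0.05 (0.712% of all tested genes did), and the counts were also 0 with edgeR's likelihood ratio test and with DESeq2. Estimates were split evenly, with 5 above 0 and 5 below, between −0.13 for *Tfec* and 0.17 for *Rragd*. Their median log2 fold change was −0.025, beside −0.023 over all tested genes, and the median size regardless of sign was 0.062 beside 0.098. For 9 of the 10 genes the 95% confidence interval lay within 1 log2 unit of 0 on either side, and for all 10 within 1.5, the fold limit the study applied. The exception at 1 was *Rragd*.

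**Figure D1:**
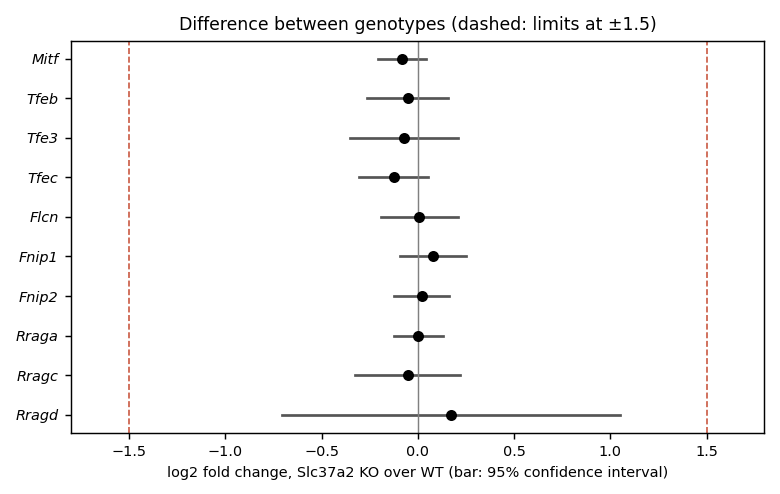
Log2 fold change of KO over WT for each of the 10 genes (x axis), with its 95% confidence interval from edgeR's quasi-likelihood fit as a bar. Every interval crosses 0 and lies between the dashed lines at −1.5 and 1.5, and that of *Rragd*, −0.70 to 1.05, is the widest.

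To show the 5′ ends of the genes the results turn on, 300-base windows from 250 bases before to 50 after the annotated start were read from RefSeq (GRCm38.p6). The capitals mark CACGTG, the E-box core of the sites that MiT-TFE factors bind, which reads the same on both strands. *Rragc*, the most abundant of the 10 per kilobase of exon, and *Fnip1*, which showed the highest estimate in the folliculin complex, were the members with this hexamer in their window. *Rragd*, the member that varied most between libraries, is shown for comparison and has none there, although its gene is a known target of the factors. The windows are Rragc chr4:123917183-123917482 (plus strand), Fnip1 chr11:54437929-54438228 (plus strand) and Rragd chr4:32982748-32983047 (plus strand).
Rragc: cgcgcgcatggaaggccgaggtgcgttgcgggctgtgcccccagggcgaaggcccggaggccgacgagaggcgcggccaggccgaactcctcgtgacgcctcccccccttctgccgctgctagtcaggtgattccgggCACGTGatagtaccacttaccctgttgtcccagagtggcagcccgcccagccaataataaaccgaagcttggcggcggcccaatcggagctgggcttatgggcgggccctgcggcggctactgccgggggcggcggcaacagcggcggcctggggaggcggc
Fnip1: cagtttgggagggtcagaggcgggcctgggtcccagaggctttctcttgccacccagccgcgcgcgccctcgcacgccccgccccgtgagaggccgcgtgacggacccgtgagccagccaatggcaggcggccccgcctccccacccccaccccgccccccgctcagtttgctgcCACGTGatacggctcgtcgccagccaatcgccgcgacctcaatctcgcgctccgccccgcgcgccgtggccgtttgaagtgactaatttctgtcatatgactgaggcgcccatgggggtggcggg
Rragd: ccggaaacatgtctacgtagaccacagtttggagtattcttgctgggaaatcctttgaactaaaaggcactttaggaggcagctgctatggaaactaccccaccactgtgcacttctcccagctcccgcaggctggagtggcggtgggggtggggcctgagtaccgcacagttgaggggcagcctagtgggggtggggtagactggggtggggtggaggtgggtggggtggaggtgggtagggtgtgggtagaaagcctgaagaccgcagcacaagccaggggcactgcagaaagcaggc
The hexamer began 112 bases before the *Rragc* start and 75 bases before that of *Fnip1*. Across the RefSeq windows it occurred in 2349 of 32851 (7.15%), and among the 15 windows of the 10 genes in 2. The related CATGTG, searched on both strands, was in 0 of the 15 windows and in 14.2% of all windows. A longer palindrome with CACGTG at its centre was also searched, and was in 0 of the 15 windows and in 0.326% of all windows. The sites marked in *Rragc* and *Fnip1* thus match the core and not this longer form. *Mitf* and *Tfeb* have 3 annotated start windows each and *Tfe3* has 2. Counts were made per gene and do not separate isoforms from different starts.

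Of the factors, *Mitf* encodes the family member best known from osteoclast and melanocyte development (chr6:97807052-98021349, plus strand; gene coordinates here and below are GENCODE M21 on GRCm38). It measured 94.3, 95.9 and 99.7 scaled CPM in WT K090, L080 and L082, and 91.7, 89.5 and 92.5 in KO K089, L078 and L081. All 3 KO libraries lay below all 3 WT libraries, with means of 96.6 ± 2.77 and 91.3 ± 1.60 (SD, n = 3 each). The log2 fold change was −0.082 ± 0.052 (SE; 95% confidence interval −0.21 to 0.044), it was −0.034 without WT L082, and the quasi-likelihood test did not call it (adjusted p = 0.969, edgeR with Benjamini-Hochberg adjustment).

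*Tfec*, a relative expressed mainly in myeloid cells, gave 57.0, 65.0 and 56.7 scaled CPM in WT and 54.1, 53.2 and 56.5 in KO, in the same order of libraries. Again no KO library reached the WT range, although WT L082 and KO L081 were nearly level and WT L080 stood well above the rest. Its log2 fold change was −0.13 ± 0.073 (SE; 95% confidence interval −0.30 to 0.050), and −0.059 without WT L080. For either gene the two-sided exact permutation test gave p = 0.1, the smallest that 3 samples against 3 can give. Groups that did not overlap, with KO lower, were found for 2 of the 10 genes and for 2.81% of all tested genes, and in either direction for 4.31%. With levels scaled by library total or by DESeq2's size factors, *Tfec* overlapped and 1 of the 10, *Mitf*, stayed apart (4.62% and 3.96% of all tested genes).

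*Tfe3*, which acts redundantly with *Mitf* in osteoclasts, lies on the X chromosome (chrX:7762560-7775202, plus strand). It measured 87.0, 81.6 and 66.9 scaled CPM in WT and 71.0, 82.4 and 70.7 in KO. The groups overlapped, with K090, L080 and L078 high and the other libraries low in both genotypes, and the log2 fold change was −0.072 ± 0.12 (SE; 95% confidence interval −0.35 to 0.21). *Tfeb*, the family member most studied as a driver of lysosomal genes, was at 29.1, 29.0 and 25.7 scaled CPM in WT and 25.7, 26.1 and 29.1 in KO. Here 1 KO library was as high as the highest WT library, and the log2 fold change was −0.051 ± 0.087 (SE; 95% confidence interval −0.26 to 0.16). All 4 factors thus had estimates below 0, with a median of −0.077, and none passed the test. With 1 library left out the median ran from −0.039 (without KO K089) to −0.11 (without WT L082), and *Tfe3* turned to 0.0095 without WT K090 and *Tfeb* to 0.0059 without KO K089.

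To ask whether the make-up of the family differed, each factor's share of the reads of the 4 factors, per kilobase of exon, was compared. *Mitf* held 39.4 ± 2.58% in WT and 39.5 ± 0.927% in KO (SD, n = 3 each), *Tfec* 26.9 ± 1.41% and 26.2 ± 0.678%, *Tfe3* 21.3 ± 2.25% and 21.6 ± 1.88%, and *Tfeb* 12.4 ± 0.466% and 12.7 ± 0.722%. Exon length here covers all annotated transcripts of a gene, 9261 bases for *Tfe3* and 5594 for *Tfec*. By counts, *Tfe3* came before *Tfec* in every library, with means of 29.8% and 22.7% in WT and 30.2% and 22.1% in KO. Per kilobase, the order *Mitf*, *Tfec*, *Tfe3*, *Tfeb* held in every library. Each of the 4 shares differed between genotypes by less than its SD in WT (exact permutation test, two-sided, n = 3 each, p = 0.5 to 1, adjusted p = 1 for each).

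**Figure D2:**
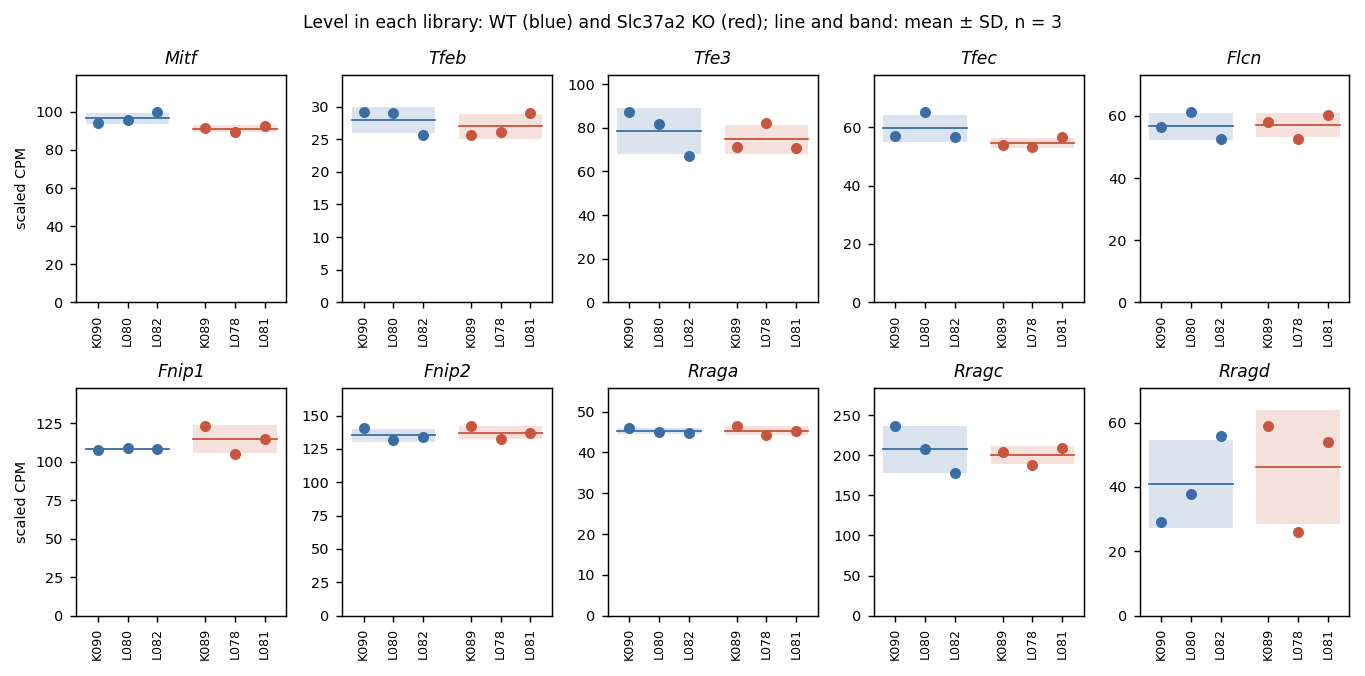
Scaled CPM of each gene (y axis, starting at 0) in the 3 WT libraries (blue) and the 3 *Slc37a2* KO libraries (red), named by animal below the axis, with a line at each mean and a band of ±1 SD (n = 3). *Rraga* is nearly flat at 44.3 to 46.5, while *Rragd* runs from 25.9 to 59.0 with both genotypes at both ends.

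Folliculin is the GTPase-activating subunit for RagC and RagD. Its gene *Flcn* (chr11:59791408-59810016, minus strand) measured 56.5, 61.1 and 52.5 scaled CPM in WT and 58.1, 52.7 and 60.2 in KO. The 2 sets spanned almost the same range, and the log2 fold change was 0.0070 ± 0.083 (SE; 95% confidence interval −0.19 to 0.21, adjusted p = 0.990, edgeR's quasi-likelihood test, Benjamini-Hochberg adjusted).

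*Fnip1* and *Fnip2* encode the alternative partners of folliculin. *Fnip1* lay between 107.7 and 108.6 scaled CPM in the 3 WT libraries and reached 123, 105 and 115 in KO K089, L078 and L081. The KO values thus bracketed the WT values, the SD was 0.473 in WT and 9.01 in KO, and the log2 fold change was 0.081 ± 0.071 (SE; 95% confidence interval −0.091 to 0.25), with 0.047 when KO K089 was left out and 0.14 when KO L078 was. *Fnip2* measured 141, 131 and 134 scaled CPM in WT and 142, 133 and 137 in KO, with a log2 fold change of 0.020 ± 0.059 (SE; 95% confidence interval −0.12 to 0.16). *Fnip2* took 55.6 ± 0.988% of the counts of the pair in WT and 54.6 ± 1.09% in KO (SD, n = 3 each; exact permutation test, two-sided, p = 0.4). Transcripts of the 2 genes were therefore present in nearly equal amounts in both genotypes, at 51.6% *Fnip2* in WT and 50.5% in KO per kilobase of exon.

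RagA is the subunit of the Rag pair that is switched by GATOR1. Its gene *Rraga* is a single exon (chr4:86575668-86577285, plus strand) and gave 46.1, 45.0 and 44.7 scaled CPM in WT and 46.5, 44.3 and 45.2 in KO. It was the steadiest of the 10, with 0.070 log2 units between its highest and lowest library, a range narrower than that of all but 0.610% of the 8692 genes with a mean of at least 10 scaled CPM. The log2 fold change was 0.0019 ± 0.053 (SE; 95% confidence interval −0.13 to 0.13). *Rragb*, the close relative of *Rraga*, was at the low end of detection, with 15 to 62 counts a library and 0.550 to 1.38 scaled CPM. Its RefSeq window holds 3 CACGTG hexamers.

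RagC and RagD are the alternative second subunits, and of these *Rragc* (chr4:123917446-123936997, plus strand) was the more abundant. It measured 237, 208 and 178 scaled CPM in WT and 204, 188 and 209 in KO. The WT libraries held both the highest and the lowest value, and the log2 fold change was −0.052 ± 0.11 (SE; 95% confidence interval −0.32 to 0.22). Over 264 bases, 7.90% of its exon length, *Rragc* overlaps 4930535I16Rik on the opposite strand, a gene absent from the count table. Of its 50-base stretches, 6.75% occur, on either strand, in transcripts of 2 other genes, neither of them a member. That share can include stretches from the same overlap. Whether counting used the strand is not given in the sources used here, so its level carries that uncertainty.

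*Rragd* (chr4:32983037-33022180, plus strand) was the member that varied most. It measured 29.0, 37.9 and 55.9 scaled CPM in WT K090, L080 and L082, and 59.0, 25.9 and 53.8 in KO K089, L078 and L081. High and low libraries were found in both genotypes, 2.28-fold apart at the extremes, and the means of 40.9 ± 13.7 and 46.2 ± 17.8 (SD, n = 3 each) differed by less than either SD. The log2 fold change of 0.17 ± 0.36 (SE) had a 95% confidence interval of −0.70 to 1.05, so neither a decrease by 0.614-fold nor an increase by 2.07-fold could be told from no change. Its range of 1.19 log2 units was wider than that of 94.9% of the 8692 genes. Between the libraries with animal letter K the KO value was the higher (59.0 against 29.0), whereas with letter L the KO values of 25.9 and 53.8 stood beside WT values of 37.9 and 55.9. Leaving out WT K090 or KO K089 turned the estimate to −0.023 or −0.014, and leaving out WT L082 or KO L078 moved it to 0.49 or 0.46.

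*Rragd* accounted for 10.9, 15.4 and 23.9% of the *Rragc* and *Rragd* counts in WT and for 22.5, 12.1 and 20.5% in KO. The composition of this pair thus varied widely among libraries of the same genotype, by more than 2-fold within WT, and the means of 16.7 ± 6.58% and 18.3 ± 5.52% (SD, n = 3 each) lay closer together than either SD (exact permutation test, two-sided, p = 0.9).

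The libraries themselves differed in state, and *Rragd* and *Tfe3* were ordered along with it. In CPM of the library total, interferon response genes summed to 173, 85.2 and 22.1 in WT K090, L080 and L082. They summed to 14.2, 104 and 30.4 in KO K089, L078 and L081, and all 12 listed genes were detected in each library. The median level of the 8 macrophage markers, relative to each gene's own mean, was 0.77, 0.60 and −0.84 log2 units in WT and −0.82, 0.70 and −0.39 in KO, and that of the 10 osteoclast markers −0.40, −0.11 and 0.064 in WT and 0.43, −0.30 and 0.25 in KO. By these medians, the 3 libraries lowest in *Rragd* (L078, K090 and L080) were the 3 highest in interferon and macrophage markers and the 3 lowest in osteoclast markers, and were also the 3 highest in *Tfe3*. Each set of 3 held both genotypes. The summed macrophage markers, carried by *Csf1r* and *Cd68*, gave another order in CPM of the library total. There KO K089 was highest at 4155, and L078 and K090 were at 3879 and 3866. With the interferon level as a term in the fit, the *Rragd* estimate became −0.18 (95% confidence interval −0.47 to 0.11) and that of *Tfe3* 0.028 (−0.11 to 0.17), and neither passed the test. The part of these differences in the results was not tested.

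**Figure D3:**
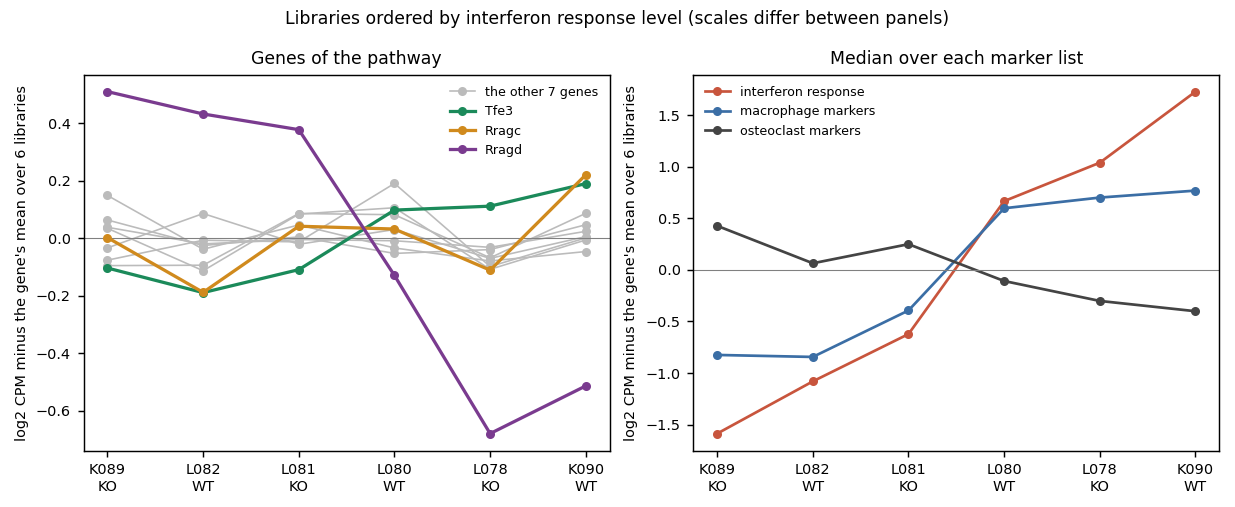
Levels in log2 units relative to each gene's own mean over the 6 libraries (y axes, which differ in scale), for the 10 genes (left) and as the median over the interferon, macrophage and osteoclast lists (right), with the libraries ordered by interferon level. *Rragd* is low in K090, L080 and L078, where the interferon and macrophage lists are high and the osteoclast list is low.

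The genes whose pattern over the 6 libraries was closest to that of *Rragd*, among 8691 compared, were *Akr1c18*, *Layn*, *P3h2*, *Zswim5* and *Pip5k1b*. Their root mean square differences from *Rragd*, in log2 units after centring each gene, were 0.036, 0.055, 0.059, 0.061 and 0.088. *Akr1c18*, a hydroxysteroid dehydrogenase gene, measured 158, 212 and 290 scaled CPM in WT K090, L080 and L082 and 325, 139 and 298 in KO K089, L078 and L081. It was lowest in L078 and highest in K089, as *Rragd* was, a likeness for which it was chosen.

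Compared per kilobase of exon, *Rragc* was the most abundant of the 10 genes, at 62.2 ± 8.75 scaled CPM per kilobase in WT and 60.0 ± 3.25 in KO (SD, n = 3 each). *Rraga* followed at 28.0 in both genotypes, and then *Fnip2* (16.2 and 16.4), *Fnip1* (15.2 and 16.1), *Mitf* (15.6 and 14.7) and *Flcn* (13.1 and 13.2). *Tfec* (10.7 and 9.76), *Rragd* (7.91 and 8.94), *Tfe3* (8.48 and 8.07) and *Tfeb* (4.93 and 4.76) were lower, and *Rragb* was at 0.463 and 0.368. In this order *Fnip2* and *Fnip1*, *Fnip1* and *Mitf*, *Tfec* and *Rragd*, and *Rragd* and *Tfe3* overlapped in their library ranges, whereas the other neighbours did not. Per kilobase of exon, the transcripts for RagC and RagA were thus more abundant than those for folliculin, its partners and every factor. That length covers all annotated transcripts, 1 for *Rraga* (1618 bases) and 14 for *Tfe3* (9261 bases), and the order depends on it. By scaled CPM without this division, *Rragc* was still the highest, with a mean of 204 over the 6 libraries. *Rraga*, at 45.3, was then below all of these genes except *Tfeb*, at 27.4.

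**Figure D4:**
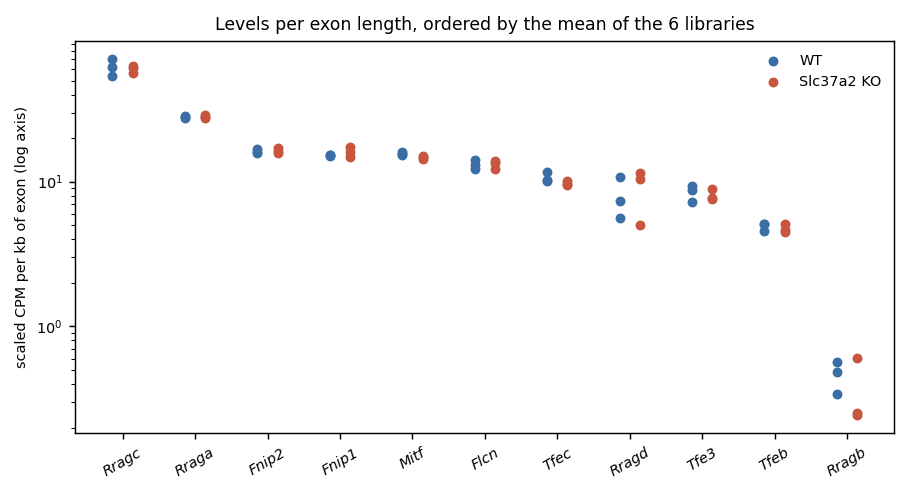
Scaled CPM per kilobase of exon (y axis, log scale) of the 10 genes and *Rragb* in each WT (blue) and *Slc37a2* KO (red) library, ordered by the mean of the 6 libraries. *Rragc* leads at 53.4 to 70.9, and *Rragb* is last at 0.244 to 0.609.

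The genes around the Rag and folliculin machinery were described by 6 lists holding 77 genes, all of them tested. None of the 77 passed the quasi-likelihood test, and 0 had an unadjusted p below 0.05 with edgeR's quasi-likelihood test, its likelihood ratio test or DESeq2. Of the genes that anchor the Rag pair or report arginine to it (the Ragulator subunits, *Rragb* and *Slc38a9*), 6 of 7 estimates were above 0, with a median of 0.031. *Lamtor1*, the lipid-anchored Ragulator subunit, measured 142 ± 6.60 scaled CPM in WT and 159 ± 23.3 in KO (log2 fold change 0.16 ± 0.12, SE). *Lamtor2* stood at 54.9 and 59.3, and *Lamtor3* at 84.8 and 90.5.

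For mTORC1, Rheb and the TSC complex, 5 estimates were above and 4 below 0, with a median of 0.011. *Mtor*, the kinase itself, measured 78.0 ± 4.17 scaled CPM in WT and 77.5 ± 2.03 in KO, *Rptor*, its scaffold, 83.8 and 84.5, and *Rheb*, the GTPase that activates it, 81.5 and 82.6. The GATOR, KICSTOR and amino acid sensor genes gave 5 above and 11 below 0, with a median of −0.032. *Sec13* was at 103 ± 0.0784 in WT and 100.04 ± 3.77 in KO, *Seh1l* at 71.9 ± 0.887 and 68.8 ± 2.02, and the leucine sensor family gene *Sesn1* at 47.8 ± 17.6 and 40.9 ± 12.4 (SD, n = 3 each). Calcineurin, which dephosphorylates the factors, the lysosomal calcium channel gene *Mcoln1*, 14-3-3 proteins and the nuclear export receptor together gave 4 above and 7 below 0, with a median of −0.011. The 14-3-3 genes *Ywhae* (520 and 516 scaled CPM), *Ywhag* (431 and 425) and *Ywhaz* (295 and 313) were the most abundant of these by counts.

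None of the known downstream genes passed the test, and their estimates are given as a description. Of 25 lysosome and autophagy genes with CLEAR elements, the DNA sites of the MiT-TFE factors, 24 estimates were above 0, with a median of 0.15, beside 5899 of all 13483 tested genes. *Ctsb*, for cathepsin B, measured 5150 ± 233 scaled CPM in WT and 5735 ± 820 in KO, *Psap*, for the sphingolipid activator precursor, 3845 ± 233 and 4192 ± 370, and *Ctsd*, for cathepsin D, 3845 ± 688 and 3933 ± 115 (SD, n = 3 each). *Lamp1*, a structural lysosomal membrane protein gene named after its value was seen, was the 1 estimate below 0, at −0.33 ± 0.37 (SE). All 9 osteoclast targets of MITF and TFE3 had estimates above 0, from 0.21 to 0.45, with a median of 0.29. The proton pump gene *Tcirg1* measured 2020.2 ± 298 in WT and 2480.0 ± 597 in KO, *Acp5* 11776 ± 2213 and 15130.4 ± 4308, and *Ctsk* 11124 ± 3513 and 15224 ± 5435 scaled CPM.

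Both medians were smaller than the spread between libraries of 1 genotype in the median level of the same list, an SD of 0.18 for the lysosome and autophagy genes and of 0.32 for the osteoclast targets, and both depended on which libraries were included. Of the osteoclast targets, *Acp5*, *Ctsk*, *Oscar*, *Dcstamp* and *Atp6v0d2* are themselves among the osteoclast markers. All 10 osteoclast markers had estimates above 0, with a median of 0.28, and none passed the test. Their summed level was highest in KO K089, at 70383 CPM of the library total, and lowest in WT K090, at 39869. Without KO K089 the median of the osteoclast targets was 0.17, and without KO L078 it was 0.48, while that of the lysosome and autophagy genes ran from 0.085 to 0.27 over the same omissions. With the interferon level as a term in the fit, the medians were 0.089 and 0.041. The part of the interferon, macrophage and osteoclast levels in these estimates was not tested.

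**Figure D5:**
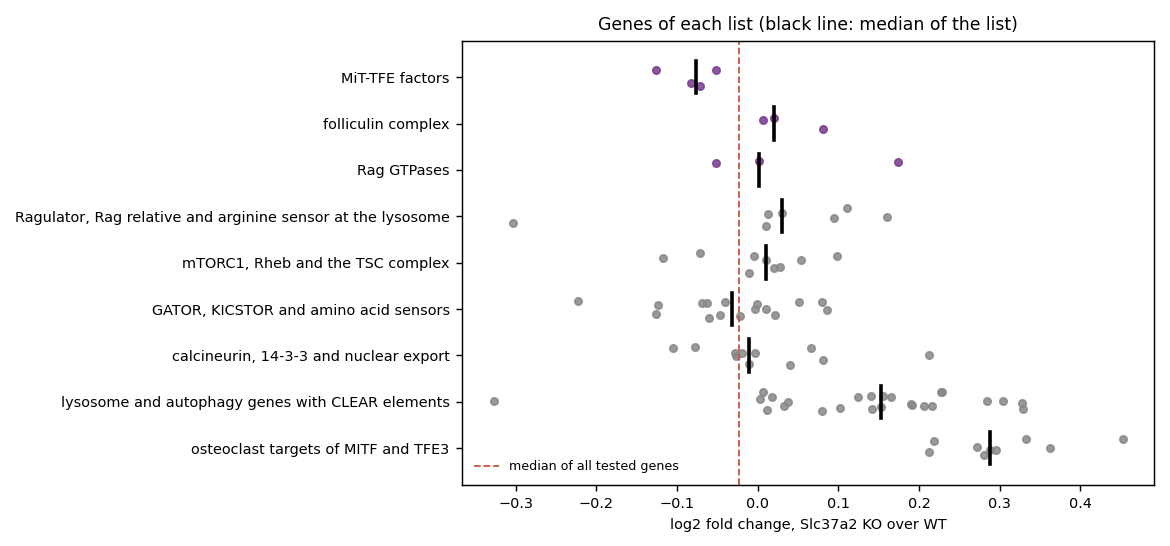
Log2 fold change of KO over WT (x axis) for each tested gene of the pathway lists, with the median of each list marked. The lysosome and autophagy genes and the osteoclast targets lie mostly above 0, with medians of 0.15 and 0.29, the 4 factors lie below 0, and the dashed line marks the median of all tested genes, −0.023.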

How the data were processed

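RNA was sequenced from 3 WT and 3 *Slc37a2* KO osteoclast samples. The authors deposited raw counts per gene symbol for 22601 genes. Per the labels' processing notes, mm10 and bcl2fastq 2.20.0.422 were used, and edgeR 3.30.3 was also named; which aligner, counter and strand setting were used is not given in the sources used here. That same table holds the authors' own fold changes, log CPM, likelihood ratios and p-values, which were not used, nor was a second file of the first 1000 genes. 0 columns came from other samples. Columns were grouped by the genotype in their headings.

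Genes passing edgeR's filterByExpr (13483, including all 10 members) were fitted with edgeR 4.0.16 in R 4.3.3: TMM scaling (factors 0.931 to 1.06), then the quasi-likelihood test with a single genotype term, its p-values adjusted by Benjamini-Hochberg across the tested genes. A call needed an adjusted p below 0.05, with an absolute log2 fold change over 1.5 or at any fold. At depths of 27552183 to 42522292 counts, members had 699 to 9666 counts a library, and the biological coefficient of variation over all genes was 20.8%. The quasi-likelihood p-values set the genotype difference against the variation between these samples, moderated across genes. The sources of that variation were not separated. Replicate pairs differed well beyond sampling noise (chi-square per degree of freedom 7.00 or more), so none was a repeat deposit. The fit was also run on counts simulated with the means, library sizes and dispersions of these data, and the outcome is not reported here. Genes were drawn independently, so the state shared by the genes of a library was not simulated. Gene coordinates and exon lengths came from GENCODE M21 (GRCm38, the build mm10), and 300-base windows from RefSeq (GRCm38.p6). Exon length was the union of the exons of all annotated transcripts of a gene.

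Members and lists were chosen with earlier results of these data known. Genes named were the members, *Slc37a2*, *Rragb*, the 3 most abundant genes of each pathway list, any gene past the test and the 5 genes most like the member with the widest range. Alternatives were DESeq2's size factors, upper quartile scaling and library totals, other filters, the likelihood ratio test, DESeq2 1.42.0, the letter of the animal number as a block, the interferon level as a term, and each library left out.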

Additional observations from a re-analysis of the deposited data

How the results depend on the processing

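No paired analysis was possible because neither the labels nor the column headings state which WT animal belongs with which KO animal. Over 14 other settings, 0 of the 10 genes passed the test in any (lowest adjusted p 0.252, edgeR or DESeq2). Of 140 member estimates, 125 kept their sign and 15 changed it. The number of genes called over the whole table was 2 without a filter on low counts, with the likelihood ratio test and with DESeq2. Members whose groups did not overlap numbered 1 by library total and 1 by DESeq2's size factors (4.62% and 3.96% of all tested genes). With 1 library left out they numbered 2 to 3, with 3 when KO L078 was omitted. The share over all genes is not given for these omissions. The cause of these shifts was not tested.

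Estimates changed sign for *Mtor* with DESeq2's size factors (0.0076), upper quartile scaling (0.00025), DESeq2 (0.0070) and the interferon term (0.0059), and for *Ywhae* with DESeq2's size factors (0.0075) and DESeq2 (0.0074). Without a filter, *Flcn* was −0.00062 and *Rraga* −0.0054. With the interferon term, *Rraga* was −0.0019, *Tfe3* 0.028, *Rragc* 0.0020, *Rragd* −0.18, *Lamtor3* −0.025, *Rheb* −0.019 and *Sesn1* 0.11.

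Leaving out 1 library at a time gave −0.020 to 0.064 for *Flcn*, −0.0011 to 0.050 for *Fnip2*, −0.0017 to 0.025 for *Rraga*, −0.13 to 0.053 for *Rragc*, −0.023 to 0.49 for *Rragd*, −0.15 to 0.0095 for *Tfe3* and −0.089 to 0.0059 for *Tfeb*. It gave −0.029 to 0.024 for *Mtor*, −0.015 to 0.086 for *Rheb*, −0.045 to 0.061 for *Ywhae*, −0.049 to 0.041 for *Ywhag* and −0.082 to 0.13 for *Ctsd*. *Tfe3* and *Rragc* turned above 0 without WT K090 and *Tfeb* without KO K089, while *Fnip2* and *Rraga* turned below 0 without WT L080 and *Flcn* without WT L082 or KO L081. The median of the GATOR list ran from −0.056 to −0.0031. Differences in share (KO minus WT, percentage points) ran from −0.79 to 1.60 for *Mitf*, −1.13 to 1.70 for *Tfe3*, −0.13 to 0.51 for *Tfeb*, −1.30 to 0.0082 for *Tfec* and −1.30 to 5.18 for *Rragd*. With 3 samples a group, only *Rragd* among the members had an interval wide enough to hide a 2-fold increase.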
